A study of Homo sapiens with 16 samples.

Results

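Gene expression in U-87MG cells that received indole-3-pyruvate (I3P) together with the antagonist SR1 was compared with expression in cells that received only the carrier, DMSO, to see what difference from the carrier remained under both compounds. The 8 arrays of the comparison, of 16 in the series, were chosen by their labelled condition and paired by replicate number. The 4 I3P+SR1 arrays came from cells given I3P at 25 µM and SR1 at 1 µM, and the 4 DMSO arrays from cells given DMSO at 0.1%. The other groups, set beside these for only part of the genes described, held 4 arrays each, of cells given I3P alone at 25 µM or SR1 alone at 1 µM. U-87MG is an established human glioblastoma line, and the series calls it AHR proficient. All arrays come from this line alone, so nothing here speaks of other cells. The length of treatment, and whether the cells given compounds also received carrier, are not stated. The labels call the arrays biological replicates 1 to 4 without saying what separates them, so the source of the spread behind the p-values is not known. In the main fit it is the spread left among all 16 arrays once group means and replicate numbers are fitted. Replicates 3 and 4 carry the title series SMI and replicates 1 and 2 the title series SLI, and every replicate number, with a title prefix of its own, holds all groups.

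The aryl hydrocarbon receptor (AHR) is a transcription factor that waits in the cytoplasm with chaperones until a ligand binds, then moves to the nucleus, pairs with ARNT and binds short DNA elements whose core reads GCGTG. Its best known targets are the cytochrome P450 genes CYP1A1, CYP1A2 and CYP1B1 and the feedback genes AHRR and TIPARP, whose products restrain the receptor. I3P is the keto acid made from tryptophan by removal of its amino group, and it gives rise to AHR ligands. SR1 (StemRegenin 1) is a purine compound that blocks the human receptor. In gliomas, AHR is known for its activation by tryptophan metabolites.

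The promoters of 4 genes are shown because these genes were lower with SR1 alone than with DMSO and their levels under I3P+SR1 are described here. Each window runs from 250 bases before to 50 bases after the transcript start, read along the gene's own strand, from RefSeq on GRCh38.p14. TIPARP lies at chr3:156674340-156674639 on the plus strand, AHRR at chr5:321464-321763 on the plus strand, STC2 at chr5:173328365-173328664 on the minus strand and EREG at chr4:74364895-74365194 on the plus strand. Capitals mark the core GCGTG or its reverse complement CACGC.
TIPARP: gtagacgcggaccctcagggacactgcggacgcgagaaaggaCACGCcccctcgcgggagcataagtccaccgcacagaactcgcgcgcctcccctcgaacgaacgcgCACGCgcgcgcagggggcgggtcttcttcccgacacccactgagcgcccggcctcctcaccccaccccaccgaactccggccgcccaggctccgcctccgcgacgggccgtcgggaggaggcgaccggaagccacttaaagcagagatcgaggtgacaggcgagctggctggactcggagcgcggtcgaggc
AHRR: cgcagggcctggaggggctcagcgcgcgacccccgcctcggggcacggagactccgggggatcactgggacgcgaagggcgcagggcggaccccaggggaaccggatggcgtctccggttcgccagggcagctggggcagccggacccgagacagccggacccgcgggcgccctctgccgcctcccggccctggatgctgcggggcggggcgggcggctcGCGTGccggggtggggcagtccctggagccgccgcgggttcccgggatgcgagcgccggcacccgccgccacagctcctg
STC2: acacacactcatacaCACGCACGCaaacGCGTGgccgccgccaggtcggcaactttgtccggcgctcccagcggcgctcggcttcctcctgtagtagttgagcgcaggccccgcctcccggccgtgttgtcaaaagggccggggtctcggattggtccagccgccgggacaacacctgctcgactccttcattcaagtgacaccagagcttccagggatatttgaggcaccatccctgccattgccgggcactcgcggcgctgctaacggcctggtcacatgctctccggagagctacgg
EREG: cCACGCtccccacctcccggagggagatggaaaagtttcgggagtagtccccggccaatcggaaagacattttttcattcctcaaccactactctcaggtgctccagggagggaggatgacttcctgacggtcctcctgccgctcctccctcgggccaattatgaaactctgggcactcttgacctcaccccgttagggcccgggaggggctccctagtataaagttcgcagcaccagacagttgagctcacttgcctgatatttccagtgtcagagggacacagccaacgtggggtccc
The core stood 30 bases before the start in AHRR (position -30), at -208 and -142 in TIPARP, at -235, -231 and -222 in STC2, where the first and second matches overlap, and at -249 in EREG. Of the 23 genes that passed for SR1 alone against DMSO without a block, 17 are listed in the promoter table, and 11 of these 17 windows hold the core on either strand. Of all 27305 windows in the table, 9919 (36.3%) hold it. A match describes the letters of the window and is no evidence of binding.

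No gene passed between I3P+SR1 and DMSO. Of 14040 genes, 0 had an adjusted p under 0.05 by limma with the replicate number as a block (0% called), and the smallest adjusted p was 0.9999. In the same fit, 0 genes passed for I3P alone against DMSO (limma smallest adjusted p = 0.459) and 45 for SR1 alone. No response to I3P alone passed here that the count of 0 could be set against. An unadjusted p under 0.05 was found for 370 genes, or 2.64%, where 702, or 5%, would be expected if no gene differed. Of these, 194 (1.38%) were higher and 176 (1.25%) lower in I3P+SR1. The unadjusted count was 641 without the I3P array of replicate 1, 313 without DMSO replicate 3 and 785 with array weights. That I3P array, outside the comparison but in the fit, had the lowest of the 16 weights (0.12). The 4 arrays of I3P+SR1 all lay above the 4 DMSO arrays for 96 genes (0.684%) and all below them for 75 (0.534%). In all 4 pairs of equal replicate number, I3P+SR1 was above its DMSO array for 697 genes (4.96%) and below it for 903 (6.43%). The median difference over all genes was -0.01 on the log2 scale.

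CYP1B1, a cytochrome P450 that is among the most responsive AHR targets, lay at its DMSO level on average under both compounds. Its log2 level was 10.56, 10.53, 11.15 and 11.11 in I3P+SR1 replicates 1 to 4, against 10.71, 10.84, 10.92 and 10.93 in DMSO replicates 1 to 4. Both SMI arrays of I3P+SR1 (replicates 3 and 4) were above every DMSO array, and both SLI arrays (replicates 1 and 2) were below every DMSO array. The group means were 10.84 ± 0.34 in I3P+SR1 and 10.85 ± 0.10 in DMSO (SD, n = 4 each), a difference of -0.01 (95% interval -0.29 to 0.27). With SR1 alone the 4 levels were 8.17 to 8.40, and with I3P alone 11.01 to 11.34, set against the same DMSO arrays.

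TIPARP, an ADP-ribosyltransferase that AHR induces and that feeds back on it, had the same arrangement. Its level was 10.15, 10.25, 10.94 and 11.38 in I3P+SR1 replicates 1 to 4, against 10.59, 10.67, 10.37 and 10.84 in DMSO. The SMI arrays of I3P+SR1 again lay above all DMSO arrays and the SLI arrays below all of them, so the spread was 0.58 (SD) in I3P+SR1 and 0.19 in DMSO. The difference was 0.06 (95% interval -0.32 to 0.45).

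AHRR, the AHR repressor, was at 8.44, 8.08, 8.53 and 8.81 in I3P+SR1 and at 8.57, 8.62, 8.36 and 8.60 in DMSO. The groups overlapped, and the difference was -0.07 (95% interval -0.41 to 0.26). AHR itself was at 11.16 ± 0.11 in I3P+SR1 and 11.16 ± 0.11 in DMSO (SD, n = 4 each), a difference of 0.01 (95% interval -0.18 to 0.19).

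SLC16A6, a member of the monocarboxylate transporter family, had the widest DMSO spread among these genes. Its level was 9.80, 9.38, 9.16 and 9.92 in I3P+SR1, against 10.46, 9.75, 8.25 and 9.23 in DMSO. The I3P+SR1 arrays lay inside the range of the DMSO arrays, and the difference was 0.14 (95% interval -0.33 to 0.62). STC2, which encodes the secreted glycoprotein stanniocalcin 2, was at 10.23, 10.11, 10.30 and 10.85 in I3P+SR1 and at 10.43, 10.32, 9.95 and 10.62 in DMSO. EREG, the EGF receptor ligand epiregulin, was at 12.03, 11.79, 12.12 and 11.97 in I3P+SR1 and at 12.09, 11.87, 11.86 and 11.64 in DMSO. The groups overlapped for both, with differences of 0.04 for STC2 (95% interval -0.25 to 0.33) and 0.11 for EREG (95% interval -0.11 to 0.33).

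**Figure D1:**
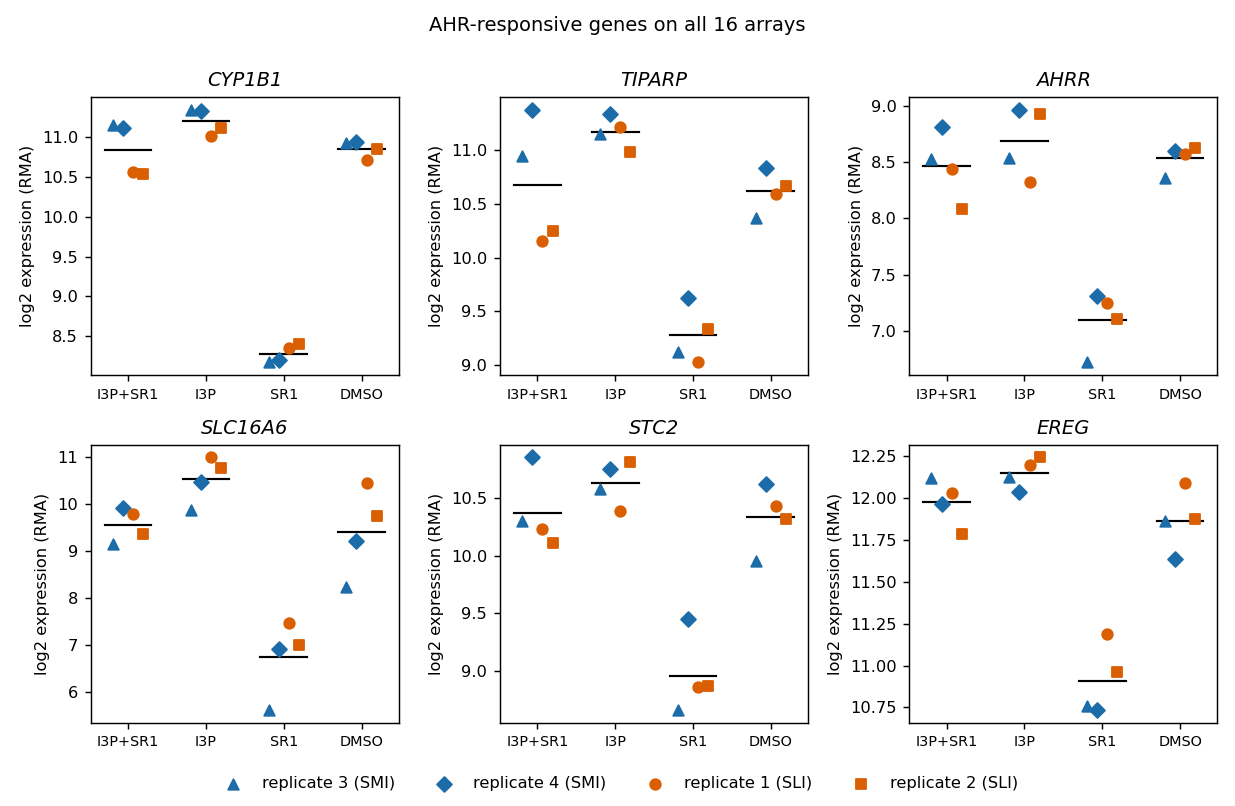
Log2 expression of CYP1B1, TIPARP, AHRR, SLC16A6, STC2 and EREG on all 16 arrays, by group, with a symbol for each replicate, blue for title series SMI, orange for SLI and a line at the group mean. The I3P+SR1 means lie at the DMSO means within 0.14 log2 units, and for CYP1B1 and TIPARP the blue points lie above and the orange points below every DMSO array.

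Of the 12 AHR targets listed as a battery, 11 were measured, since UGT1A6 had no row with a single symbol. Of these 11, 4 were higher and 7 lower in I3P+SR1 than in DMSO, 0 passed and 0 had an unadjusted p under 0.05. Their median difference was -0.02, beside -0.01 over all genes. CYP1A1, the classical AHR-induced cytochrome, was at 5.83, 5.69, 5.17 and 7.99 in I3P+SR1 and at 6.48, 6.17, 6.16 and 7.68 in DMSO. Replicate 4 was the highest of both groups, and the difference of -0.45 had the widest interval of the battery (95% interval -1.23 to 0.33). CYP1A1 was also among the dimmest genes, at percentile 0.15 of all genes by mean level.

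CYP1A2, the liver-type family member, differed by 0.19 and ALDH3A1, an aldehyde dehydrogenase, by -0.28, neither passing. NQO1, the quinone reductase, was at 10.45, 10.59, 10.79 and 10.35 in I3P+SR1 against 10.58, 10.62, 10.91 and 10.03 in DMSO, a difference of 0.01 (95% interval -0.23 to 0.25). SERPINB2, plasminogen activator inhibitor 2, was at 11.35, 10.51, 11.06 and 12.63 in I3P+SR1 against 11.74, 11.05, 10.89 and 12.66 in DMSO, a difference of -0.20 (95% interval -0.66 to 0.26). Its arrays differed more by replicate number than by group. The transporter genes ABCG2 and SLC7A5 differed by -0.02 (95% interval -0.24 to 0.21) and 0.05 (95% interval -0.21 to 0.30), and NFE2L2, the antioxidant regulator NRF2, by -0.03. The intervals of 7 of the 11 members lay within 1.5-fold of DMSO and those of 10 within 2-fold, beside 11959 (85.2%) and 13770 (98.1%) of all genes.

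The genes that differed with SR1 alone were followed next. In the fit without a block, 23 genes passed for SR1 alone against DMSO, 22 of them lower with SR1 and BDKRB1, the bradykinin B1 receptor gene, higher. They were chosen with the same DMSO arrays, so their differences from DMSO are described with intervals and support nothing by themselves. Under I3P+SR1 their differences from DMSO lay between -0.19 (TMEM119) and 0.14 (SLC16A6) with a median of -0.01, 11 higher and 12 lower. The groups overlapped for all 23. The interval lay within 1.5-fold for 22 genes and within 2-fold for all 23.

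By role, the enzymes of this set were close to DMSO. ALDH1A3, which makes retinoic acid, differed by -0.10 (95% interval -0.35 to 0.16), where SR1 alone differed from DMSO by -1.06. CPOX, an enzyme of haem synthesis, differed by -0.10 (95% interval -0.34 to 0.14), where SR1 alone differed by -0.71. PLA2G4A, the cytosolic phospholipase A2, differed by -0.13 and AGPAT9, a glycerol-3-phosphate acyltransferase, by -0.10. The transcription factor genes ZIC2 and DLX2 differed by -0.12 (95% interval -0.45 to 0.21) and 0.05 (95% interval -0.22 to 0.33). Among signalling genes, the scaffold gene CARD10 differed by -0.01, the kinase gene RIPK4 by 0.02, the CDC42 effector gene CDC42EP2 by 0.00 and the lipid transfer gene PITPNC1 by 0.00. BDKRB1 was at 9.61, 9.47, 9.13 and 9.18 in I3P+SR1 and at 9.39, 9.09, 9.39 and 9.37 in DMSO. With SR1 alone it was at 10.00, 10.24, 10.01 and 10.35, above all arrays of both groups.

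**Figure D2:**
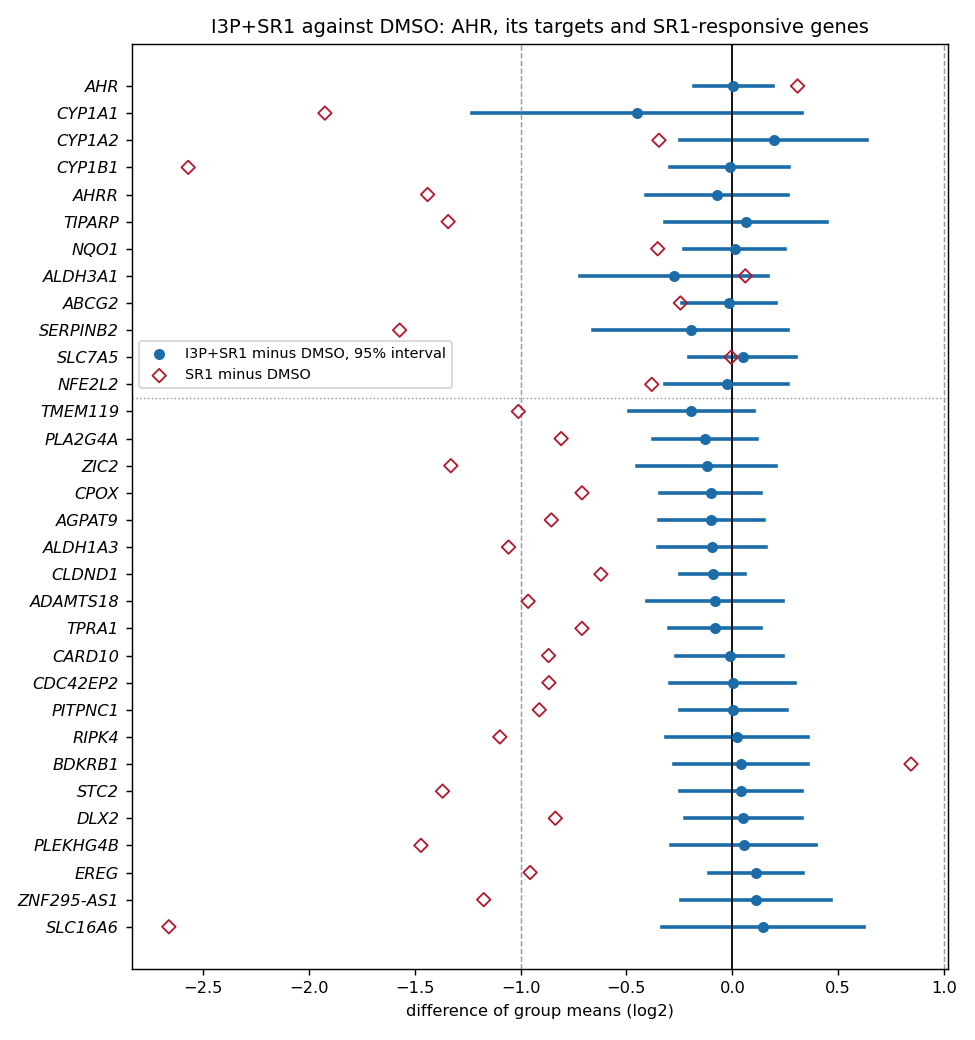
Differences of group means on the log2 scale for AHR, the 11 measured battery members and the further SR1-responsive genes, with filled points and 95% intervals for I3P+SR1 minus DMSO and open diamonds for SR1 minus DMSO, dashed lines at 2-fold. The filled points sit near 0, from -0.45 (CYP1A1) to 0.19 (CYP1A2), while the diamonds of CYP1B1 and SLC16A6 reach -2.57 and -2.66. Both differences use the same DMSO arrays.

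With the replicate number as a block the set of genes passing for SR1 alone was larger, 45 genes of which 40 were lower, and it held all 23 above. Under I3P+SR1 these 45 differed from DMSO by -0.45 (CYP1A1) to 0.24 (NUAK2, an AMPK-related kinase), with a median of -0.01. The interval lay within 1.5-fold for 42 and within 2-fold for 44. IL1B, the cytokine interleukin-1 beta, differed by 0.18 (95% interval -0.18 to 0.54), where SR1 alone differed from DMSO by -1.70. INSIG1, a sterol sensor of the endoplasmic reticulum, differed by -0.06 (95% interval -0.32 to 0.20), where SR1 alone differed by -1.04. LAYN, a hyaluronan receptor gene, differed by 0.21, where SR1 alone differed from DMSO by 0.52. Its I3P+SR1 arrays all lay above the DMSO arrays, as in 1 of the 45 genes and in 0.684% of all genes.

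For part of the SR1-responsive genes, the near-zero average was made of paired differences of opposite sign in the title series. Of the 22 genes that were lower with SR1 alone, 13 lay above their paired DMSO array in both SMI pairs and below it in both SLI pairs, and 0 did the reverse. Over all genes the first pattern was found for 965 (6.87%) and the reverse for 895 (6.37%). The median paired difference of the 22 genes was 0.16 and 0.22 in the SMI replicates 3 and 4 and -0.25 and -0.22 in the SLI replicates 1 and 2. The difference was higher in SMI than in SLI for 21 of the 22, TPRA1 being the exception, and for 7096 (50.5%) of all genes. Genes driven by a common regulator do not vary independently, so the 22 are not 22 separate observations, and only 2 pairs stand on each side.

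SLC16A6 had the largest such gap among the 22. Its paired difference was 0.91 and 0.70 in the SMI pairs and -0.66 and -0.37 in the SLI pairs, a difference between series of 1.32 (95% interval 0.75 to 1.88, limma adjusted p = 0.99997). That interval depends on the replicate block: the unadjusted limma p was 0.00043 with it and 0.061 without it. By the levels given above, both SLI arrays of DMSO were higher for SLC16A6 than both SMI arrays of DMSO. The I3P+SR1 arrays overlapped between the series, so this gap lay in the DMSO arrays. TIPARP had paired differences of 0.57 and 0.54 in SMI and -0.44 and -0.42 in SLI, a gap of 0.98 (limma adjusted p = 0.99997). For TIPARP the DMSO arrays overlapped between the series, and both SMI arrays of I3P+SR1 were higher than both SLI arrays of I3P+SR1. CYP1B1 had 0.23 and 0.18 in SMI and -0.15 and -0.31 in SLI, a gap of 0.44 (limma adjusted p = 0.99997). The antisense RNA gene ZNF295-AS1 had a gap of 0.70, CDC42EP2 of 0.67 and PITPNC1 of 0.53, and these were the 6 of the 22 genes with an unadjusted p under 0.05. BDKRB1, the gene higher with SR1 alone, went the other way, with -0.26 and -0.19 in SMI and 0.23 and 0.38 in SLI.

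Across all genes, 0 passed for the difference between the title series (0% called, smallest adjusted p = 0.499), and 465 (3.31%) had an unadjusted p under 0.05, of which 229 (1.63% of all genes) were higher in SMI. Each of the 11 battery members was also higher in SMI than in SLI, with medians of 0.11 in SMI and -0.23 in SLI, and CYP1B1, AHRR and TIPARP belong to both sets. With each array left out in turn the counts were 20 to 22 of the 22 genes and 9 to 11 of the 11 members. For the same 22 genes, I3P alone minus DMSO had medians of 0.33 in SMI and 0.12 in SLI and was higher in SMI for 22, and SR1 alone minus DMSO had medians of -0.92 in SMI and -1.12 in SLI and was higher in SMI for 16. These share the DMSO arrays with the comparison described here, and the part of the DMSO arrays in the gap was not tested. The labels do not explain SMI and SLI, so the gap cannot be tied to a batch, a date or a passage.

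**Figure D3:**
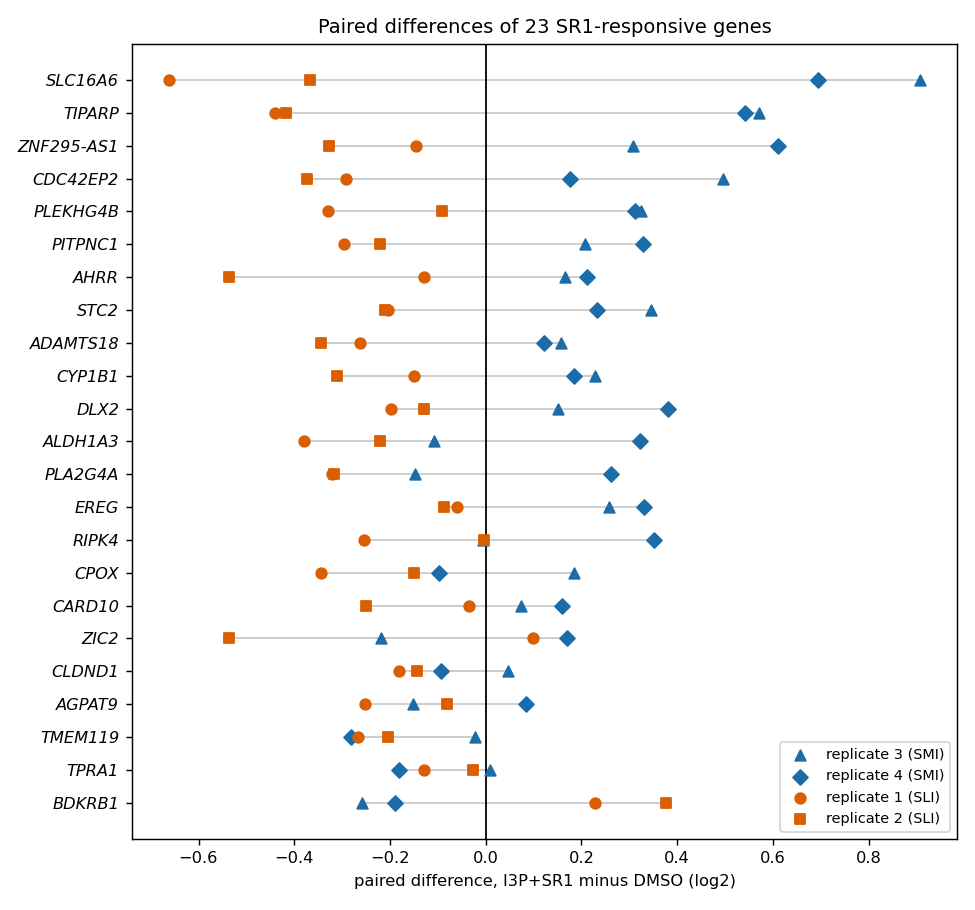
Paired differences, I3P+SR1 minus the DMSO array of equal replicate number, on the log2 scale for the 23 SR1-responsive genes, ordered by the gap between series, with blue symbols for the SMI replicates 3 and 4 and orange symbols for the SLI replicates 1 and 2. Blue symbols lie mostly right of 0 and orange symbols mostly left, reaching 0.91 and -0.66 for SLC16A6, and BDKRB1 at the bottom has the opposite arrangement.

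The genes named by smallest p did not pass and were mostly dim. Some of them differed from DMSO about as much with a single compound, so those are not particular to the combination. The 12 of smallest p in each direction had adjusted p = 0.9999 throughout, a median mean-level percentile of 14.3 among all genes, and groups that did not overlap in 9 of 24 (6 higher, 3 lower), a count that their choice by p favours. PLA2G2D, a secreted phospholipase A2, had the smallest p. Its level was 7.72, 7.57, 7.79 and 7.57 in I3P+SR1 and 7.21, 7.03, 6.81 and 7.09 in DMSO, with every I3P+SR1 array above every DMSO array. The difference was 0.63, or 1.55-fold (95% interval 0.35 to 0.91). Against the same DMSO arrays PLA2G2D differed by 0.36 with SR1 alone and 0.01 with I3P alone.

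IRF7, the interferon regulatory factor that controls type I interferon genes, was at 7.82, 7.91, 8.05 and 7.88 in I3P+SR1 and at 7.58, 7.63, 7.36 and 7.49 in DMSO. The groups did not overlap and the difference was 0.40 (95% interval 0.20 to 0.61). IRF7 also differed from DMSO by 0.37 with I3P alone and 0.32 with SR1 alone. The chemokine receptor gene CCR2 was at 7.65, 7.41, 7.20 and 7.63 in I3P+SR1 and at 7.15, 6.89, 7.06 and 6.62 in DMSO, again without overlap, a difference of 0.54. With I3P alone CCR2 differed from DMSO by 0.46 and with SR1 alone by -0.05. PLEKHG5, RASSF4, a RAS-association domain gene, and the antisense RNA gene HOXB-AS4 were also higher on every I3P+SR1 array, by 0.38, 0.37 and 0.36. With I3P alone they differed from DMSO by 0.37, 0.30 and -0.06 in that order. LGR5, the R-spondin receptor gene, was higher by 0.57 and in 4 of 4 pairs, though its groups overlapped. LGR5 differed from DMSO by 0.75 with I3P alone and 0.46 with SR1 alone. The phosphodiesterase gene PDE1A was higher by 0.49, the glycosyltransferase gene GCNT3 by 0.35, PTCRA, the pre-T-cell receptor alpha gene, by 0.41, LINC00337 by 0.75 and TAF1L by 0.50. TAF1L differed from DMSO by 0.66 with I3P alone and 0.49 with SR1 alone, while GCNT3 differed by 0.00 and 0.32. PDE1A ranged over more than 2 log2 units within each group, being at 7.92 in I3P+SR1 and 7.79 in DMSO on the replicate 4 arrays against 5.67 or less on the others.

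Among the lower genes, PRAM1, an adaptor gene of myeloid cells, was at 6.64, 6.59, 6.46 and 6.62 in I3P+SR1 and at 7.20, 7.54, 6.92 and 7.33 in DMSO. Its groups did not overlap, and the difference was -0.67 (95% interval -1.03 to -0.31). UROC1, the urocanase of histidine breakdown, and CCDC18 were also lower on every I3P+SR1 array, by -0.53 and -0.39 as differences. JAK2, the cytokine receptor kinase, was at 7.57, 7.59, 7.66 and 7.96 in I3P+SR1 against 7.90, 7.89, 8.21 and 8.26 in DMSO, a difference of -0.37 with I3P+SR1 lower in all 4 pairs. The sialidase gene NEU3 differed by -0.53, FNBP1L by -0.40, the CTP synthase gene CTPS2 by -0.43, NNMT, nicotinamide N-methyltransferase, by -0.43, the transcription factor gene TCF21 by -0.66, THAP10 by -0.36, PLEKHF2 by -0.38 and GIN1 by -0.74, all with groups that overlapped. With I3P alone NEU3 differed from DMSO by -0.65 and TCF21 by -0.66, while FNBP1L differed by 0.06 and GIN1 by 0.26. With SR1 alone they differed by -0.16, -0.27, 0.02 and -0.27 in that order.

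Differences over 2-fold were few and rested on single arrays or dim genes. They numbered 3 of 14040, with 2 higher and 1 lower, and 13918 genes (99.1%) differed by less than 0.5 on the log2 scale. BOLL, a germ-cell RNA-binding protein gene, was at 7.83, 7.16, 7.98 and 7.90 in I3P+SR1 and at 7.54, 2.13, 6.55 and 7.42 in DMSO. The DMSO array of replicate 2 was the lowest by far, giving a paired difference of 5.02 against 0.29 to 1.44 in the other pairs, and the mean difference was 1.81. PROM1, the gene of the CD133 antigen used to mark glioma stem cells, was at 7.81, 7.58, 7.42 and 7.52 in I3P+SR1 and at 7.80, 8.09, 8.39 and 11.03 in DMSO. The replicate 4 DMSO array stood apart, and the difference of -1.24 became -0.56 without it. TRIM29, at percentile 1.40 of all genes by mean level, differed by 1.16 with an interval from -1.44 to 3.76. These 3 were named for their size after their values were seen.

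**Figure D4:**
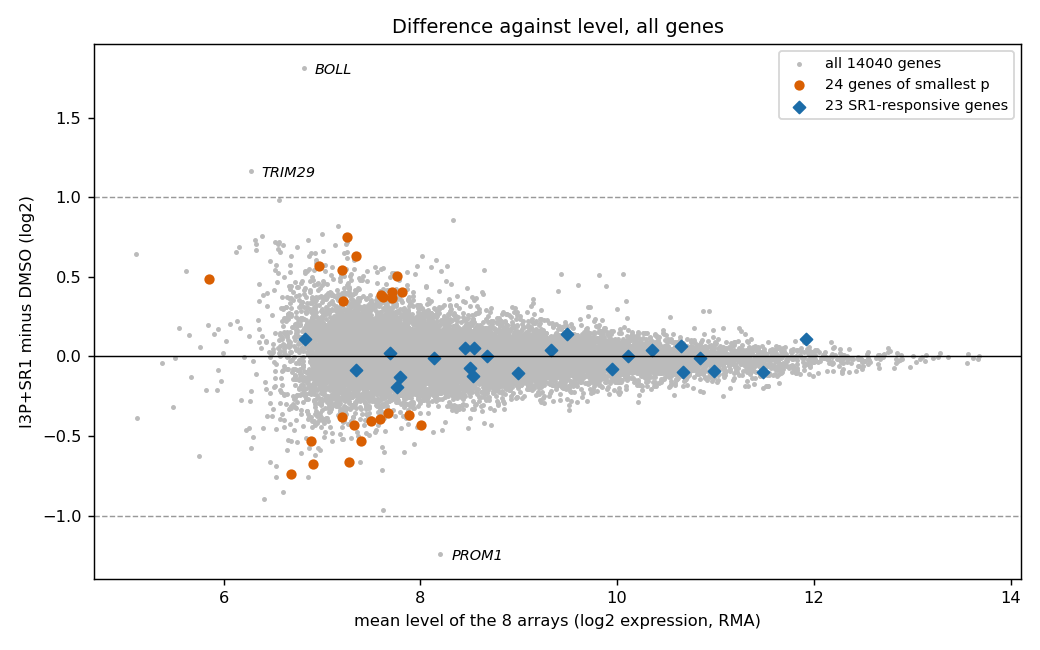
Difference of I3P+SR1 minus DMSO (log2) against the mean level over the 8 arrays for 14040 genes, with the 24 genes of smallest p in orange, the 23 SR1-responsive genes as blue diamonds and dashed lines at 2-fold. The spread narrows with level, the orange points lie at low levels, and the diamonds lie within 0.19 of 0.

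Gene lists chosen for this line and these compounds, 27 in number and holding the AHR battery, had no member that passed, beside 0% of all genes. The list of AHR, its partners and its cofactors had 9 of 15 members higher, 6 lower and a median of 0.01. NCOA2 and NCOA7, nuclear receptor coactivator genes, had the smallest p in it, with differences of -0.22 and 0.21. Other reported AHR-responsive genes had 13 of 28 higher and a median of -0.01, and LGR5 was the single member with an unadjusted p under 0.05. Cyclin D1 (CCND1) in that list was at a difference of -0.17 and below DMSO in 4 of 4 pairs. Tryptophan catabolism and transport had 7 of 18 higher and a median of -0.02, from CCBL2, a kynurenine aminotransferase, at -0.31 to DDC, aromatic amino acid decarboxylase, at 0.35.

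Medians of the lists ran from -0.06 to 0.11. The highest were those of epithelial markers at 0.11 (7 of 9 higher), endothelial markers at 0.10 (8 of 9 higher) and neuronal markers at 0.08 (7 of 9 higher). Haematopoietic markers were at 0.02 (5 of 9 higher). The epithelial median was 0.27 in SLI and -0.05 in SMI, the endothelial 0.21 and 0.08 and the neuronal 0.10 and 0.07. Among the markers of other cells GRHL2, an epithelial transcription factor gene at a difference of 0.37, was the single member with an unadjusted p under 0.05. The lowest median was that of mitosis, where 24 of 28 members were lower and 4 higher, within -0.17 (MAD2L1) to 0.05 (KIF20A), and none had an unadjusted p under 0.05. The pairs did not share this: 19 of the 28 were higher in replicate 1, 10 in replicate 2, 6 in replicate 3 and 7 in replicate 4. The mitosis median was -0.01 in SLI and -0.12 in SMI. DNA replication had 16 of 26 lower and a median of -0.01. CDC45, a subunit of the replicative helicase, was lower on every I3P+SR1 array, at a difference of -0.29 (95% interval -0.54 to -0.04). Hypoxia and glycolysis had 17 of 24 higher, with PFKFB4, a regulator of glycolytic flux, at 0.22 (95% interval 0.05 to 0.39) and no overlap between its groups. Interferon-stimulated genes had 7 of 19 higher and a median of -0.03. They ran from IRF7 at 0.40 and OAS1 at 0.39 down to OAS2, an antiviral synthetase, at -0.32. IRF7 was the single member with an unadjusted p under 0.05. Groups did not overlap for 3 of the 19, beside 0.684% of all genes with I3P+SR1 above and 0.534% below.

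The labels name the experiment after migration, and the list of migration, mesenchymal and integrin genes had 11 of 28 higher and a median of -0.02. ITGA2, an integrin subunit, differed by 0.15 (95% interval -0.03 to 0.34) and PLAU, urokinase, by -0.17 (95% interval -0.40 to 0.05). Matrix and matrix protease genes had 15 of 32 higher and a median of -0.01, within -0.17 (COL5A1) to 0.09 (MMP3). TGF-beta and YAP targets had 11 of 23 higher and a median of -0.01. Cytokine and NF-kB genes had 14 of 25 higher and a median of 0.02, with the growth factor gene CSF3 at 0.18. Immediate early genes had 18 of 28 higher and a median of 0.03. Circadian clock genes had 12 of 18 higher and a median of 0.06, with PER1 at 0.26 and ARNTL at 0.20, each higher in 4 of 4 pairs and neither at an unadjusted p under 0.05.

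The remaining pathway lists lay as close to 0. NRF2 antioxidant genes had 8 of 18 higher (median -0.01), cholesterol and fatty acid synthesis 8 of 20 (median -0.04), the integrated stress response 12 of 23 (median 0.04), endoplasmic reticulum folding genes 10 of 18 (median 0.01), p53 targets 13 of 21 (median 0.04), heat shock genes 4 of 13 (median -0.05), WNT pathway genes 13 of 21 (median 0.01) and retinoid genes 7 of 16 (median -0.02). Over all genes, 6556 were higher and 7484 lower.

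**Figure D5:**
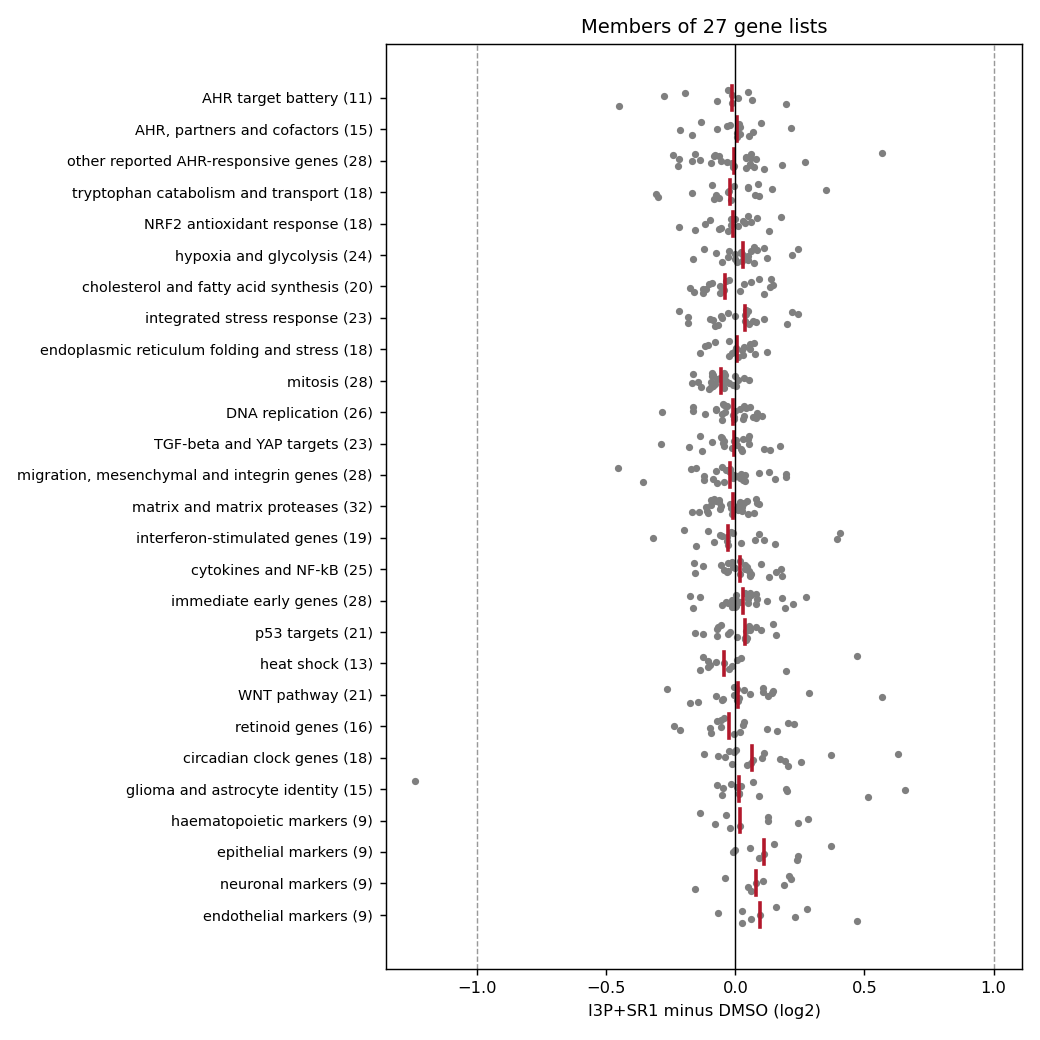
Differences of I3P+SR1 minus DMSO (log2) for each measured member of 27 gene lists, with the number of members in brackets, a red bar at each list's median and dashed lines at 2-fold. The medians lie between -0.06 and 0.11, and PROM1 in the glioma list at -1.24 is the one member beyond 2-fold.

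The size of difference that could be seen depended on the level of a gene. Over all genes the 95% interval reached a median of 0.28 log2 units to either side of the estimate. Among the lowest of 4 sets of 3510 genes ranked by mean level it reached 0.37, with 62.3% of intervals inside 1.5-fold and 172 genes at an unadjusted p under 0.05. In the next sets up it reached 0.29 and 0.26, with 86% and 94.5% inside 1.5-fold. In the highest set it reached 0.22, with 97.9% inside and 18 genes at an unadjusted p under 0.05. The 270 genes whose interval passed 2-fold on either side were not resolved to that size.

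Of 15 measured genes of glioma and astrocyte identity, 7 stood above the median gene in I3P+SR1, against 8 in DMSO. VIM was at percentile 99.8 of all genes in I3P+SR1 and 99.9 in DMSO, TNC at 99.8 in I3P+SR1 and 99.8 in DMSO, CHI3L1 at 96.6 in I3P+SR1 and 96.5 in DMSO, and GFAP, the astrocyte filament gene, at 46 in I3P+SR1 and 28.5 in DMSO (difference 0.51, limma adjusted p = 0.9999). Low in both groups were PDGFRA, at 5.43 in I3P+SR1 and 2.69 in DMSO, OLIG1, at 23.7 in I3P+SR1 and 3.96 in DMSO, and NES, at 26.5 in I3P+SR1 and 26.5 in DMSO. OLIG1 differed by 0.66. At an unadjusted p under 0.05, 2 of the 15 were higher (GFAP and OLIG1) and 1 lower (PROM1), beside 2.64% of all genes. None of the 15 passed, 10 were higher and 5 lower, and their median difference was 0.01. The files hold no detection calls, so absence of a marker cannot be read from its level. Of the markers of other cells, 2 of 9 haematopoietic, 3 of 9 epithelial, 2 of 9 neuronal and 1 of 9 endothelial genes stood above the median gene in I3P+SR1, against 2, 2, 2 and 1 in DMSO. Their list means per array were 7.62 to 7.74 in I3P+SR1 and 7.58 to 7.66 in DMSO for haematopoietic genes, and 7.90 to 8.06 in I3P+SR1 and 7.60 to 8.17 in DMSO for epithelial genes. They were 7.92 to 8.20 in I3P+SR1 and 7.83 to 8.10 in DMSO for neuronal genes, and 7.94 to 8.02 in I3P+SR1 and 7.81 to 7.86 in DMSO for endothelial genes. The endothelial ranges did not overlap, and their part in any result was not tested. PTCRA, CCR2 and PRAM1, named above, are blood-cell genes. Of the haematopoietic markers, PTPRC stood at percentile 7.74 in I3P+SR1 and 8.88 in DMSO, CSF1R at 57 in I3P+SR1 and 53.4 in DMSO, and ITGAM at 66.7 in I3P+SR1 and 59.4 in DMSO, and their part in these values was not tested. Correlations over genes among the 8 arrays were 0.926 to 0.976, and the I3P array of replicate 1, outside the comparison but in the fit, stood apart at 0.877 to 0.910. Groups were taken as labelled, and no value here tells apart the SR1 and I3P+SR1 labels if they had been exchanged in every replicate. The SR1 arrays, and not the I3P+SR1 arrays, carried the low AHR-target levels.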

How the data were processed

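The values are log2 expression, 1 per transcript cluster and array, as the authors deposited them. RNA was column-purified and labelled with a whole-transcript array kit from 100 ng per sample, per the labels' protocols. RMA and oligo are named per the submitters' processing notes, without versions. The genome build, annotation and row filter are not given in the sources used. RMA normalizes arrays to one distribution (medians 8.26 to 8.298) and compresses differences of dim genes. No detection calls were used. The precision depended on the level of a gene as well as on the number of arrays.

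Of 16510 rows, 14096 had 1 symbol in the platform annotation, 795 had several and 1619 were not listed. For 52 symbols with more than 1 row the row of highest mean was kept, giving 14040 genes, of which 12952 symbols are current and 1088 older. No value columns were left unused, and no 2 arrays were duplicates (smallest root mean square difference 0.258).

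limma 3.58.1 in R 4.3.3 took all 16 arrays into one model of group means plus the replicate number as a fixed block, since the comparison is defined by pairs. The deviations of equal-numbered arrays from their group means correlated at 0.349, 0.472, 0.220 and 0.520 over genes, all above the floor of 0.1 used here. No such value was taken for arrays of unequal number, so pairing by number cannot be told apart from a shared title series. Tests were two-sided, adjusted p is by Benjamini-Hochberg over all 14040 genes, and a gene passed at adjusted p under 0.05. The title series were compared by an interaction term in one fit. The script was tested on simulated data. The 95% intervals are per gene and unadjusted. The named genes were the 12 of smallest p in each direction, since none passed, leaving out uncharacterised loci, small RNA genes, olfactory receptors and pseudogenes. The others named were AHR, the AHR battery, the genes passing for SR1 without a block and up to 2 members of smallest p per list. The extremes of lists and genes picked for size were named after their values were seen, as were the examples from the 45 genes. The members, lists and tests were chosen with earlier results of these data known. Alternatives covered the block, the arrays fitted, weights, filters, centring, each title series alone and each array or replicate left out.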

Additional observations from a re-analysis of the deposited data

Results flagged for a closer look

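Within groups of 4 arrays, 11 of 208 combinations of a named gene and a group (5.29%) held an array far from the other 3 by Dixon's criterion (gap over range above 0.829), where chance gives about 1 in 20. In replicate 4, PDE1A, a phosphodiesterase gene, was at 7.923 in I3P+SR1, against 5.212 to 5.672 on the other I3P+SR1 arrays, and at 7.795 in DMSO, against 4.687 to 5.158 on the other DMSO arrays. Replicate 4 was also high in DMSO for the coactivator gene NCOA7, at 8.943 against 7.826 to 7.903. It was low in I3P+SR1 for PLEKHG5, at 7.669 against 7.821 to 7.847, and for the spindle checkpoint gene MAD2L1, at 8.526 against 9.102 to 9.167, and low in DMSO for RASSF4, at 7.351 against 7.458 to 7.468. In replicate 2, ABCC3, an efflux transporter gene, was low in I3P+SR1 at 8.413 against 8.613 to 8.648. The DMSO array of replicate 2 was low for AHR, at 10.992 against 11.199 to 11.231, and for BDKRB1, at 9.089 against 9.371 to 9.391. In replicate 1, CCDC18 was low in I3P+SR1 at 7.042 against 7.465 to 7.529, and CD8A was low in DMSO at 6.772 against 7.128 to 7.155.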

How the results depend on the processing

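The count of 0 passing genes held in all 32 alternative settings, with a smallest adjusted p of 0.328 (limma, without DMSO replicate 4). Without the replicate block the count at an unadjusted p under 0.05 was 194, against 370 with it, and the smallest adjusted p was 0.99995. The replicate block changed no call of this comparison or of the series difference at adjusted p. It moved the genes passing for SR1 alone to 45, against 23 without it, and the unadjusted calls between series to 6 of 22 genes, against 5 without it. SLC16A6 was the gene not called without it. With 1 array left out the unadjusted count was 313 to 641, the highest without I3P replicate 1, and 557 without DMSO replicate 4. It was 785 with array weights, 690 within SMI, 703 without replicate 1, 601 with only the 8 arrays compared and 228 of 10530 genes without the dimmest. None of 3194 values of the 104 named genes passed under an alternative. Genes that did not pass have no called direction, so their changes of sign were not counted. The battery median was -0.09 to 0.03 with 1 array left out, 0.11 within SMI and -0.23 within SLI. Intervals within 1.5-fold numbered 10918 to 12571 with 1 array left out, 10886 without the block, 9772 within SMI and 7175 within SLI. Fewer arrays enter both fits within a series. SLI also holds the I3P array of replicate 1, without which the full fit gave 12571. The part of that array in the lower SLI count was not tested. For the difference between the title series, 0 genes passed in any of 19 alternative settings, with unadjusted counts of 281 to 845 and a smallest adjusted p of 0.105 (limma, without DMSO replicate 3). Signal over background was not assessed, so dim genes limit what can be read.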

Other observations

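The paired differences correlated weakly over genes between replicate numbers, from -0.21 (replicates 1 and 4) to 0.13 (replicates 1 and 3) over 14040 genes, a description in which genes are not independent. Between 0.726% (replicate 2) and 1.28% (replicate 3) of genes differed by more than 2-fold within a single pair.

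Among genes outside the groups described in the report, LINC00116 and DAPK2 were among the largest mean differences. LINC00116, a long non-coding RNA gene in the platform's naming, was at 7.44, 6.92, 7.10 and 7.11 in I3P+SR1 and at 7.996, 8.37, 7.93 and 8.14 in DMSO. Its groups did not overlap, with a difference of -0.97 (limma adjusted p = 0.9999). DAPK2, a death-associated kinase gene, was at 9.49, 7.91, 10.02 and 7.61 in I3P+SR1 and at 7.45, 7.53, 6.85 and 9.78 in DMSO. It was higher in I3P+SR1 in 3 pairs and lower in replicate 4, with a mean difference of 0.85. Both genes were chosen for their size after their values were seen.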
